A study of Mus musculus with 3 samples.

Results

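The genes described here are the core of MHC class II antigen presentation in the mouse. H2-Aa, H2-Ab1 and H2-Eb1 encode chains of the class II molecules, and H2-DMa and H2-DMb1 encode chains of the peptide exchanger H2-DM. Cd74 is the invariant chain and Ciita the class II transactivator. The members were taken by gene symbol from the gene list of 3 single-cell libraries, in which 7 of 27998 features matched, each once. H2-DMa, H2-DMb1, H2-Ab1, H2-Aa and H2-Eb1 lie within 197 kb of chromosome 17 (chr17:34119541-34316674, GRCm38), and Ciita lies on chromosome 16 (chr16:10480059-10528418). In that annotation H2-Aa is on the minus strand and the other members of the region on the plus strand.

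Class II molecules are pairs of an alpha and a beta chain that display peptides from endosomes to CD4+ T cells. Newly made pairs are bound by the invariant chain Cd74, proteases such as cathepsin S and cathepsin L cut it down to a short peptide, and H2-DM exchanges that peptide for others. Ciita does not bind DNA by itself but is recruited to the promoters of the class II, H2-DM and Cd74 genes, and dendritic cells, B cells and activated macrophages are the cells best known for high levels of these genes.

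The libraries came from 10-week-old male C57BL/6J mice that received a burn to the back and a full tenotomy of the Achilles tendon, an injury after which bone forms in the tendon (heterotopic ossification, HO). Unsorted cells were taken on day 3 from the bone marrow, from the blood and from the tendon injury site, and there was 1 library for each tissue. Marrow was flushed from the femurs, blood was reduced to its mononucleated cells on a Ficoll gradient, both were cleared of red cells, and the injury site was digested with enzymes. No uninjured library was part of the data, how many mice went into a library is not stated in the labels or methods, and in any comparison between tissues the site cannot be told apart from its preparation and library.

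After filters on genes, mitochondrial UMIs and doublets, 1813 marrow cells, 2146 blood cells and 4780 tendon cells were kept, with median depths of 22893, 8361.5 and 12178 UMIs (unique molecular identifiers, 1 for each captured transcript). At most 6 cell barcodes were shared by any pair of libraries. Cells were clustered within each library on variable genes from which the members and their pathway genes had been left out, and each cluster was named "-like" a cell class only from marker lists that hold none of the members. Levels are UMIs of a gene per 1000000 UMIs of a class (counts per 1000000, CPM), from 3′ counts, so a difference in level between genes is one of captured transcripts and not of transcript length. Brackets after a level give its exact 95% Poisson interval, and those after a ratio its exact binomial interval; both cover counting error alone, and with 1 library per tissue no difference reported here has a replicate check or a p-value.

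The alpha and beta chain genes were highest in tendon dendritic-like cells, next in blood B-like cells, and nearly undetected in marrow neutrophil-like cells. In the 163 dendritic-like cells H2-Aa was at 8648 CPM, H2-Ab1 at 9634 and H2-Eb1 at 8714, and their sum, called the class II level below, was 26996 (26751 to 27243). That sum is one of transcripts and does not give the class II molecules made. H2-Ea and H2-Ea-ps had no feature under those symbols. The class II level was 9108 (8982 to 9236) in the 371 blood B-like cells, 5427 (4950 to 5937) in the 22 tendon B-like cells and 1655 (1539 to 1776) in the 55 marrow B-like cells. Between these stood blood cluster 7, 94 cells left unnamed because their monocyte and dendritic markers nearly tied, at 3568 (3474 to 3662). The 2567 tendon monocyte/macrophage-like cells followed at 1436 (1423 to 1449).

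The next 3 groups, marrow plasmacytoid dendritic-like cells at 641, marrow monocyte/macrophage-like cells at 616 and blood NK/innate lymphoid-like cells at 590, overlapped each other in their counting intervals but neither the group above nor the one below them. The unnamed tendon cluster 20 was next at 281 (252 to 312), and blood monocyte/macrophage-like cells were lower, at 237 (225 to 249). The stromal and granulocytic classes lay below all of these: endothelial-like cells at 47.4, tendon neutrophil-like cells at 30.1, blood neutrophil-like cells at 22.6, mesenchymal-like cells at 16.6 and keratinocyte-like cells at 9.94. Marrow myeloid progenitor-like cells (5.31), blood T-like cells (4.98) and marrow neutrophil-like cells (0.903) were at the bottom among the named classes. The 3 chain genes did not go together in marrow myeloid progenitor-like cells. Of their 81 class II UMIs 77 were H2-Ab1, 4 H2-Aa and 0 H2-Eb1. The 19 tendon plasmacytoid dendritic-like cells, under the 20 cells set for this order, were at 1803. Part of this order rested on few cells, which the counting intervals do not cover. Without the 5 cells with the most class II UMIs in each group, marrow plasmacytoid dendritic-like cells were at 334 and marrow monocyte/macrophage-like cells at 106. The number left out was always 5, so a small group lost a larger share of its cells than a large one. Blood NK/innate lymphoid-like cells (3.42) and tendon cluster 20 (9.16) then fell below blood monocyte/macrophage-like cells (81.8).

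**Figure D1:**
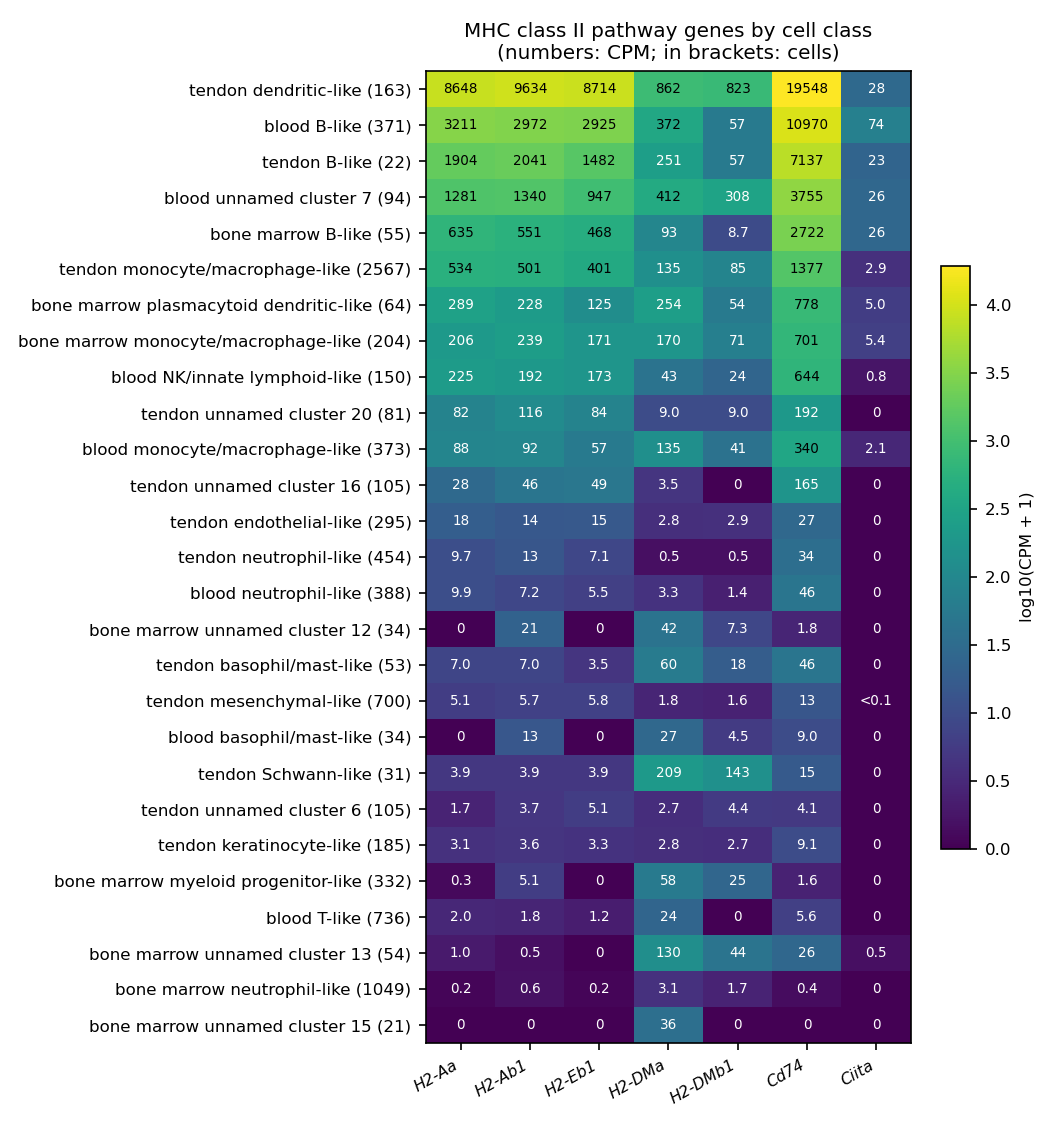
Level of each of the 7 genes (columns) in each cell class of at least 20 cells (rows, ordered by class II level, with cell numbers in brackets); printed numbers are CPM and colour is log10 of the level plus 1. H2-Aa, H2-Ab1, H2-Eb1 and Cd74 run from 8648 to 19548 in dendritic-like cells to below 1 in marrow neutrophil-like cells, while H2-DMa stays above 100 in several classes whose class II level is low.

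The members were not ordered in the same way. Cd74 was highest in dendritic-like cells at 19548 CPM and followed the chain genes down to 10970 in blood B-like, 1377 in tendon monocyte/macrophage-like and 0.410 in marrow neutrophil-like cells. Per class II UMI there were 0.724 Cd74 UMIs in dendritic-like cells, 0.959 in tendon monocyte/macrophage-like cells, 1.20 in blood B-like cells and 1.64 in marrow B-like cells, so the class with the highest class II level had the lowest of these 4 ratios. Ciita was sparse everywhere: it was highest in blood B-like cells at 74.2 (63.2 to 86.6; 162 UMIs in 124 cells) and reached 27.9 (20.6 to 37.0) in dendritic-like, 26.0 in marrow B-like and 25.6 in blood cluster 7 cells. Dendritic-like cells thus held 1.03 Ciita UMIs for every 1000 class II UMIs, and blood B-like cells 8.15. Ciita was at 2.94 CPM in tendon monocyte/macrophage-like cells. It had 0 UMIs in blood T-like cells, with an interval reaching 0.556 CPM, and in marrow neutrophil-like cells, with an interval reaching 0.151.

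H2-DMa was highest in dendritic-like cells at 862 CPM, then in blood cluster 7 at 412 and blood B-like cells at 372. H2-DMb1 was at 823 in dendritic-like cells and 308 in blood cluster 7, but at 56.8 in blood B-like cells. In dendritic-like cells H2-DMa and H2-DMb1 were thus near 1 to 1 in UMIs, and in blood B-like cells they were not. H2-DMb1 has a near-identical neighbour, H2-DMb2. Reads that fit both may have been lost or divided in counting, so both levels are uncertain. The ratio of H2-DMa to H2-DMb1 leaves out H2-DMb2, so it does not give the balance of H2-DM chains in B-like cells. H2-DMb2 went the other way, with 404 (378 to 431) CPM in blood B-like, 99.8 in marrow B-like and 83.2 in dendritic-like cells, and the remaining genes of the region listed in the files were also highest in blood B-like cells: H2-Ob at 348 and H2-Oa at 166, the chains of H2-DO, which inhibits H2-DM, and H2-Eb2 at 52.2.

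Promoter stretches are shown for H2-Aa and H2-Eb1, which form the class II sum together with H2-Ab1. They come from RefSeq on GRCm38.p6, H2-Aa at chr17:34287857-34287926 (minus strand) and H2-Eb1 at chr17:34305753-34305822 (plus strand), each 5′ to 3′ along its gene, with the matched letters in capitals.
H2-Aa: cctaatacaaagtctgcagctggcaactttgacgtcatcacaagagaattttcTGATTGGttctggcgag
H2-Eb1: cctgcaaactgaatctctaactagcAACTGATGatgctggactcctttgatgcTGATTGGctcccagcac
The letters TGATTGG are those of the Y box, bound by NF-Y, and AACNGATG those of an X box, bound by RFX. They were chosen after the sequences had been seen. For the genes named here they were searched only along the gene's own strand, in the 250 bases before each start. TGATTGG starts 50 bases before the H2-Aa start and 61 bases before the H2-Eb1 start, where AACTGATG lies a further 28 bases upstream. The same pair was found for H2-DMb1 (29 bases apart), H2-DMb2 (29) and H2-Eb2 (28), TGATTGG alone for H2-Oa and H2-Ob, and neither in the H2-DMa windows. Of 32851 RefSeq windows from 250 bases before to 50 after a start, 7.82% held TGATTGG and 2.32% held AACNGATG on either strand. These shares thus come from a wider search than that of the named genes. These are letter matches in a window and say nothing of binding in these cells. H2-Ab1 and Ciita had no window among these and are named only.

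At the tendon injury site the class II UMIs were divided almost evenly between a large class and a small one. Monocyte/macrophage-like cells, 53.7% of the kept cells, held 49.4% (49.1 to 49.7, exact Clopper-Pearson interval) of the library's class II UMIs, and dendritic-like cells, 3.41% of the cells, held 48.4% (48.1 to 48.7). The share in monocyte/macrophage-like cells lay between 38.0% and 62.5% under other ways of filtering, clustering and naming. In blood, B-like cells held 71.4%, cluster 7 held 20.01% and monocyte/macrophage-like cells 5.39%. In marrow, monocyte/macrophage-like cells held 59.1%, plasmacytoid dendritic-like cells 18.9% and B-like cells 18.8%.

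Cell by cell, class II was near universal in tendon dendritic-like and blood B-like cells and patchy in macrophages. When every cell was thinned to 1000 UMIs, leaving out shallower cells, 93.9% of dendritic-like cells had a class II UMI (96.3% before thinning, median depth 10354 UMIs), with a median of 25 UMIs per cell. For blood B-like cells the share was 98.9% (99.2% unthinned, median depth 5057), with a median of 9. Of tendon monocyte/macrophage-like cells 22.7% had a class II UMI after thinning (43.6% unthinned, median depth 11965) and 9.99% had at least 5. Keratinocyte-like cells, which should lack these transcripts unless stimulated, had 0.543% after thinning, against 26.5% before at a median depth of 38779. Other tendon classes outside the professional presenting cells were higher after thinning, mesenchymal-like cells at 1.29% (28.9% unthinned, median depth 34348.5), endothelial-like cells at 3.09% (16.9%, 20373) and neutrophil-like cells at 3.84% (10.4%, 3796.5). The part of background in these shares was not tested. The unthinned shares therefore followed depth as well as level. 44 of the 2567 monocyte/macrophage-like cells and none of the 163 dendritic-like cells were too shallow to thin.

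**Figure D2:**
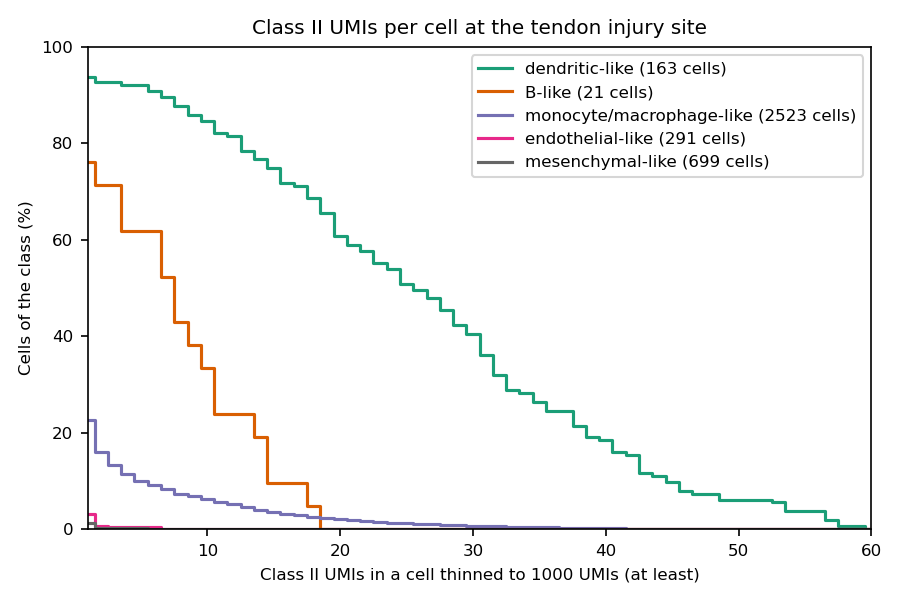
Share of cells of each tendon class (vertical axis, percent) that held at least the number of class II UMIs on the horizontal axis after thinning to 1000 UMIs per cell. The dendritic-like curve starts at 93.9% and reaches its midpoint near 25 UMIs, whereas the monocyte/macrophage-like curve starts at 22.7% and is at 9.99% by 5 UMIs.

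Within the tendon library all 7 members were higher in dendritic-like than in monocyte/macrophage-like cells. Class II was 18.8-fold higher, a log2 ratio of 4.23 (4.21 to 4.25). H2-Eb1 differed most, at 8714 against 401 CPM (log2 4.44), and H2-DMa least, at 862 against 135 (log2 2.68). H2-DMb1 was at 823 against 85.0 (3.28), Cd74 at 19548 against 1377 (3.83) and Ciita at 27.9 against 2.94 (3.25, 2.72 to 3.76). A gene was compared where both groups together held at least 20 UMIs and called where its levels differed at least 2-fold; of 11833 genes 7.43% were called higher in dendritic-like cells and 20.3% lower. The median log2 ratio was 3.83 over the members and −0.27 over all genes compared. The class II ratio stayed between 3.69 and 4.47 under all 13 alternatives.

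**Figure D3:**
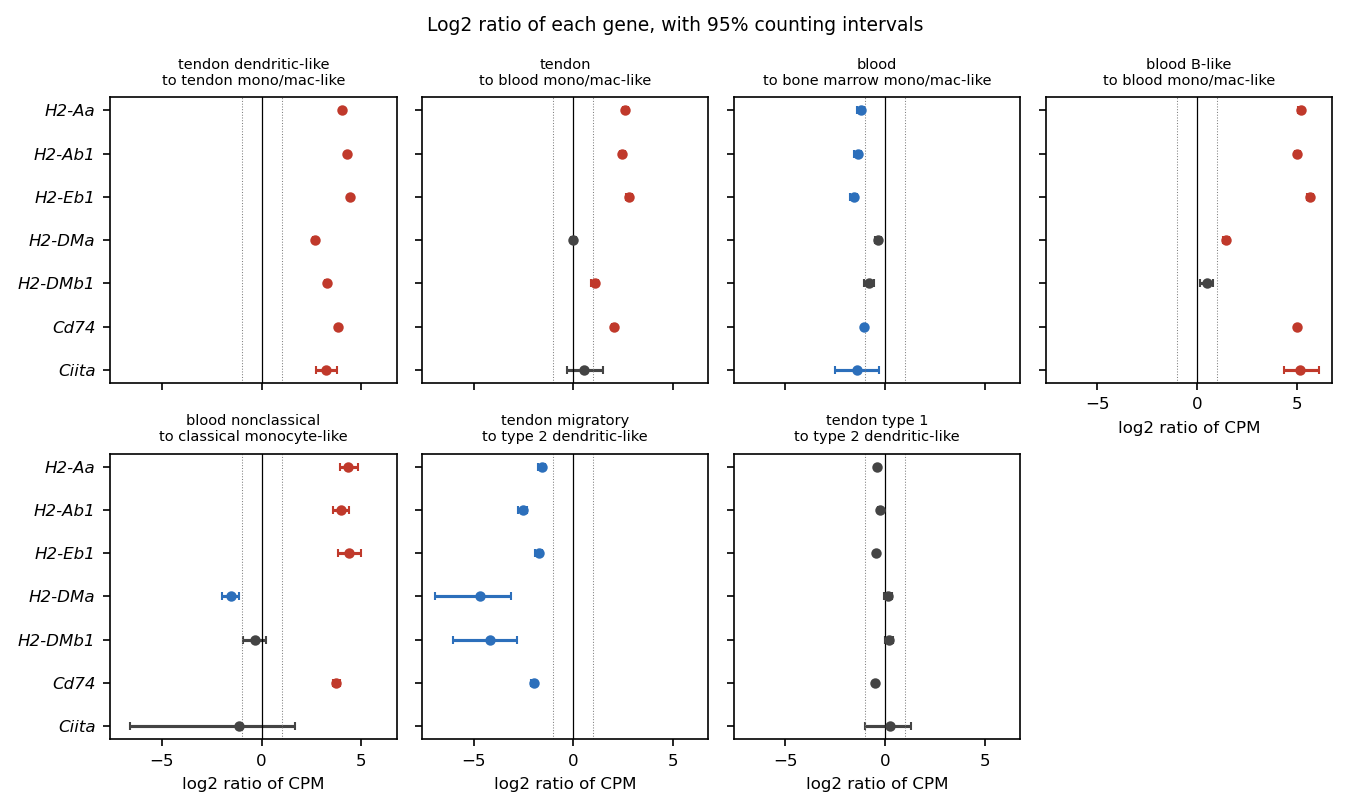
Log2 ratio of CPM for each of the 7 genes in 7 comparisons, with 95% counting intervals; dotted lines mark 2-fold, and red, blue and dark points are genes called higher, called lower and not called. All 7 genes are right of the line in the first panel, whereas H2-DMa lies at 0.00 in the tendon to blood panel and at −1.55, opposite to the chain genes, in the nonclassical to classical panel.

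Among dendritic-like cells, a small migratory group had lower levels than the rest and little H2-DM. Clustered again, the 163 cells gave 127 conventional type 2-like, 23 conventional type 1-like and 13 migratory-like cells, the last marked by genes such as Ccr7, Fscn1 and Ccl22. H2-DMa was at 889 CPM in type 2-like, 985 in type 1-like and 35.3 (3 UMIs) in migratory-like cells, and H2-DMb1 at 844, 959 and 47.1 (4 UMIs). Against type 2-like cells, migratory-like cells were lower for 6 of 7 members (17.1% of 5338 genes were called higher and 18.1% lower): class II by 1.92 on the log2 scale, Cd74 by 1.99, H2-DMb1 by 4.16 (interval of the ratio −6.04 to −2.80) and H2-DMa by 4.65 (−6.93 to −3.10). Ciita had 0 UMIs there, with an interval reaching 43.5 CPM, against 28.5 in type 2-like cells.

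The migratory-like cells were uneven: 9 of 13 held a class II UMI, and their levels ran from 0 through a median of 746 to 29049 CPM, while type 2-like cells had a median of 29009. Their number also depended on the clustering. With 2 times the resolution or with 30 principal components 20 cells took the name, and the class II log2 ratio shrank to −0.83 or −0.64, that of H2-DMa to −1.85 in both, and that of H2-DMb1 stayed at −3.79 or −3.58. Type 1-like cells had no member past 2-fold from type 2-like cells (of 5628 genes 10.6% were called higher and 14.7% lower). Their largest differences were Cd74 at −0.50 (−0.54 to −0.45) and H2-Eb1 at −0.46 (−0.53 to −0.39), so a 2-fold difference lay outside those counting intervals.

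Tendon monocyte/macrophage-like cells covered a wide range of class II levels. Cluster 21, 309 cells that carried markers of both classical monocytes and C1q macrophages and took no narrower name, was highest at 5326 (5234 to 5419) CPM, with Cd74 at 4815 and H2-DMa at 366. Cluster 2 followed at 3807, with 208 cells that were classical monocyte-like by marker level. It had C1qa, C1qb, C1qc and Mrc1 among its leading genes, as in cluster 21. Next were cluster 14 (C1q macrophage-like) at 2382 and cluster 22 (C1q macrophage-like, with interferon-response genes) at 2190. Without the 5 highest cells of each, clusters 2, 14 and 22 were at 3138, 1894 and 1441. In cluster 22 those 5 cells held the dendritic marker list at 1680 CPM against 152 in the others. They held the monocyte/macrophage list at 9079 against 43876.5. The part of dendritic-like cells in that level was not tested. The other large clusters lay between 594 and 861, the last being cluster 15, in which 5 of 121 cells held 70.2% of the class II UMIs and the level without them was 271. Cluster 19, 301 C1q macrophage-like cells led by Arg1, Pf4, Spp1 and Ppbp, was at 98.8 (89.6 to 109), or 32.7 without its 5 highest cells, and the 25 cells of cluster 23 with the tissue-resident markers Cd163 and Cd209f were at 154 (124 to 190), or 40.2 without the 5 highest. Resident markers were not confined to cluster 23. The 484 cells of cluster 4, C1q macrophage-like by marker level, held Cd163 at 531 and Folr2 at 415 CPM, against 1903 and 748 in cluster 23. Class II in cluster 4 was at 594, or 457 without its 5 highest cells. After thinning, 49.8% of cluster 21 cells (60.2% unthinned, median depth 8090 UMIs) and 4.98% of cluster 19 cells (25.9%, 12913) had a class II UMI, so these clusters differed in the share of cells with class II as well as in the level. The share in cluster 19 (interval 2.82 to 8.09) overlapped that of tendon neutrophil-like cells (3.84%, 2.25 to 6.07). Its class II level was above the 30.1 (22.9 to 38.9) CPM of those cells, or 32.7 against 23.3 without the 5 highest cells of each. H2-DMa was at 37.3 against 0.511 CPM. The part of background in these values was not tested.

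**Figure D4:**
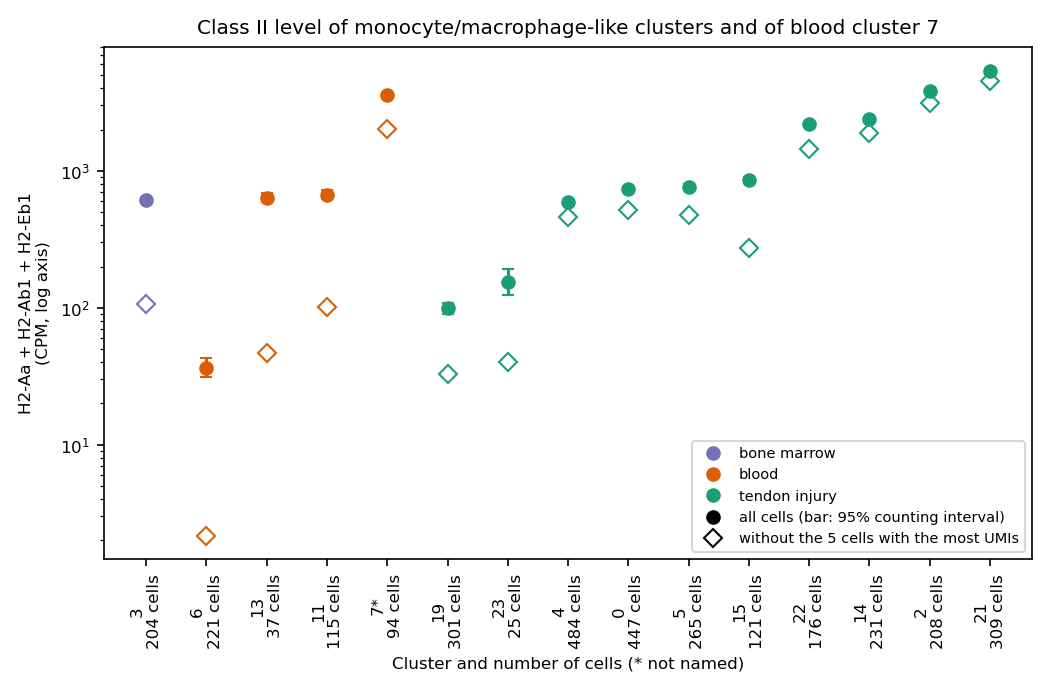
Class II level (CPM, log axis) of the monocyte/macrophage-like clusters of each library and of the unnamed blood cluster 7, with all cells (filled, bars are 95% counting intervals) and without the 5 cells with the most class II UMIs (open). Tendon cluster 21 goes from 5326 to 4506 without those cells, whereas marrow cluster 3 goes from 616 to 106 and blood cluster 6 from 36.5 to 2.15.

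How far a level rested on a few cells also differed between the whole classes of the libraries. In tendon monocyte/macrophage-like cells 85 cells held 50% of the class II UMIs, and without the 5 highest cells the level was 1358 in place of 1436. In marrow monocyte/macrophage-like cells 2 of 204 cells held 50%, and the level was 106 in place of 616. In blood monocyte/macrophage-like cells 4 of 373 cells held 50%, and the level was 81.8 in place of 237. In the 5 highest marrow cells the 18 genes of the dendritic marker list summed to 2294 CPM, against 295 in the other 199, and the monocyte/macrophage list to 1839 against 6061. The part of dendritic-like cells in the marrow level was not tested.

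Tendon monocyte/macrophage-like cells had more class II than those of blood, 1436 against 237 CPM, a log2 ratio of 2.60 (2.53 to 2.68). The class was made up differently in each tissue: of the 2567 tendon cells 1578 were C1q macrophage-like, 655 classical monocyte-like, 309 of no narrower name and 25 named for resident markers, whereas the 373 blood cells were 221 classical and 115 nonclassical monocyte-like and 37 C1q macrophage-like. The tendon C1q macrophage-like cells included the 484 cells of cluster 4, which also carried resident markers. The class II level of C1q macrophage-like cells was 972 at the tendon against 636 in blood, and that of classical monocyte-like cells 1711 against 36.5, so the difference between tissues was not alike in both. Of the 12507 class II UMIs of the tendon classical monocyte-like cells, 8847 lay in cluster 2, which also carried C1q genes and was at 3807. Cluster 0, the rest of that group, was at 734. In the 37 blood C1q macrophage-like cells 5 held 93.5% of the class II UMIs, and the level without them was 47.1. The leading genes of these blood cells were Retnla, Alox15, Saa3 and Cd5l, with C1qc and C1qa further down. Whether they were the same kind of cell as at the tendon was not tested. H2-Aa (log2 2.61), H2-Ab1 (2.45), H2-Eb1 (2.81), Cd74 (2.02) and H2-DMb1 (1.07, 0.88 to 1.26) were past 2-fold, which made 5 of 7 members (of 12029 genes 18.9% were called higher and 12.8% lower). H2-DMa did not follow them: it was at 135 CPM in both, a log2 ratio of 0.00 (−0.10 to 0.11). Ciita was at 2.94 against 2.05 (0.52, −0.33 to 1.48). The direction held for class II under all 13 alternatives, but the size did not. It ranged from 0.33, with the libraries integrated in Seurat, to 4.05, without the 5 highest cells of each group. Those were 5 of 2567 tendon cells and 5 of 373 blood cells. With clusters named from 50 leading genes blood cluster 7 joined the blood cells, the ratio was 0.68, and H2-DMb1 turned to −0.14.

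Blood monocyte/macrophage-like cells had less class II than those of marrow, 237 against 616 CPM (log2 −1.38, −1.47 to −1.29), but this ordering depended on the processing. H2-Aa (−1.23), H2-Ab1 (−1.38), H2-Eb1 (−1.58), Cd74 (−1.04) and Ciita (−1.40, on 13 and 21 UMIs) were past 2-fold, 5 of 7 members, in a comparison where 3.59% of 9861 genes were called lower and 6.15% higher. H2-DMa (−0.34) and H2-DMb1 (−0.80) were not. Without the 5 highest cells of each group the class II ratio was −0.38, and 6 of 11 alternatives turned it, to values between 0.54 and 9.76. The largest came from the Seurat clusters, whose 95 marrow cells held 4 class II UMIs. All 6 formed or named the cell groups anew. Of the alternatives that did so and gave a value, only the removal of 2 times as many doublets kept the direction.

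Among blood monocytes the chain genes and H2-DMa went in opposite directions. Nonclassical monocyte-like cells (115), the patrolling type marked by Ace and Treml4, had a class II level of 671 (620 to 725) CPM, and classical monocyte-like cells (221) of 36.5 (31.0 to 42.7). H2-Aa was at 258 against 12.6, H2-Ab1 at 262 against 16.6, H2-Eb1 at 151 against 7.25 and Cd74 at 1134 against 84.5. H2-DMa was lower in nonclassical monocyte-like cells, 55.3 against 162 (log2 −1.55, −1.99 to −1.14), and H2-DMb1 was at 34.0 against 43.3. Of the 6 members with enough UMIs 4 were higher and 1 lower, beside 12.8% and 11.9% of 8637 genes.

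These class II levels too rested on few cells, and the size of the difference on the naming. Without the 5 highest cells of each group the levels were 102 against 2.15, a larger log2 ratio of 5.56, and after thinning 12.4% of nonclassical (22.6% unthinned, median depth 7515 UMIs) and 1.36% of classical monocyte-like cells (6.33%, 19342) had a class II UMI, against 0.272% of blood T-like cells (3.80%, 8818.5). The log2 ratio of 4.20 ranged from 0.09 to 5.56 over 10 of the 11 alternatives, and with 50 leading genes, when cluster 7 counted as classical monocyte-like, it was −0.55. In the nonclassical to classical ratio H2-Aa, H2-Ab1 and H2-Eb1 all turned below 0 under that naming.

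Cluster 7 of the blood had the highest class II level outside the B-like cells of that library. Its leading genes included Cd209a, a gene of type 2 dendritic cells, beside the monocyte genes Ace and Adgre4 and the members H2-Aa, H2-Ab1, H2-Eb1 and Cd74. H2-Aa was at 1281 CPM, H2-Ab1 at 1340, H2-Eb1 at 947, Cd74 at 3755, H2-DMa at 412, H2-DMb1 at 308 and Ciita at 25.6 (18.3 to 34.9). After thinning, 39.4% of its cells had a class II UMI (56.4% unthinned, median depth 16780.5 UMIs), and without its 5 highest cells the class II level was 2024. Those 5 cells held the dendritic marker list at 1925 CPM and the other 89 at 413; the part of dendritic-like cells in the level was not tested.

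Blood B-like cells exceeded blood monocyte/macrophage-like cells for the chain genes, Cd74 and Ciita, and far less for H2-DMa and H2-DMb1. Class II was 38.5-fold higher (log2 5.27, 5.19 to 5.34), Cd74 was at 10970 against 340 (5.01) and Ciita at 74.2 against 2.05 (5.18, 4.36 to 6.12). H2-DMa was at 372 against 135 (1.47) and H2-DMb1 at 56.8 against 40.6 (0.49, 0.16 to 0.80). H2-DMb2, the near-identical neighbour of H2-DMb1 and not a member, was at 404 against 2.37. With H2-DMb1 not past 2-fold, 6 of 7 members were called higher (17.3% of 9906 genes were called higher and 23.5% lower). The class II log2 ratio ranged from 3.19 to 6.81 over 13 alternatives.

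B-like cells of the 3 libraries differed in level. Class II was at 9832 CPM in the main blood B-like cluster (334 cells) and at 6580 in the second (37 cells), and the level of the whole class was 9155 without its 5 highest cells in place of 9108. Marrow B-like cells, led by the B cell precursor genes Vpreb1, Dntt and Igll1, had 1655, or 892 without the 5 highest of 55 cells, and 36.4% of them had a class II UMI after thinning (58.2% unthinned, median depth 5134 UMIs). In marrow H2-DMa was lower in B-like than in monocyte/macrophage-like cells, 93.2 against 170 (log2 −0.86, −1.34 to −0.42), and H2-DMb1 was at 8.67 (4 UMIs) against 70.7. H2-DMb2, the near-identical neighbour of H2-DMb1, went the other way, at 99.8 against 4.37. In the 22 tendon B-like cells H2-DMa was at 251 and Cd74 at 7137; apart from the 5 cells with the most class II, those cells held the monocyte/macrophage marker list at 7867 CPM beside 6416 for the B list, and the part of macrophage RNA in their levels was not tested.

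H2-DMa was also found where class II was nearly absent. In blood classical monocyte-like cells 204 of 221 cells held H2-DMa, at 162 CPM, beside a class II level of 36.5. In marrow myeloid progenitor-like cluster 10, 92 of 93 cells held it, at 128, beside a class II level of 1.91 and a Cd74 level of 4.29. Unnamed marrow cluster 13, which combined progenitor genes such as Elane and Mpo with the monocyte genes Ccr2 and Ly6c2, had H2-DMa at 130 (114 to 146) in 47 of 54 cells, H2-DMb1 at 44.4, and 3 class II UMIs in all. Lower H2-DMa levels beside little class II were found in tendon basophil/mast-like cells (59.8, 17 UMIs) and marrow cluster 12 (41.9, 46 UMIs). The same held for marrow cluster 15 (36.4, 9 UMIs) and blood basophil/mast-like cells (26.9, 6 UMIs). Blood T-like cells had 23.7, in 131 of 736 cells. After thinning, 20.4% of cluster 13 cells and 19.9% of classical monocyte-like cells held an H2-DM UMI, against 0.575% of marrow neutrophil-like cells; median depths were 34390.5, 19342 and 20951 UMIs.

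The 31 tendon Schwann-like cells, named for the glia of peripheral nerve, showed the same combination outside the blood lineages. H2-DMa was at 209 (157 to 273; 54 UMIs in 13 cells) and H2-DMb1 at 143 (101 to 197; 37 UMIs in 10 cells), with 3 class II UMIs and 4 Cd74 UMIs. H2-DMa was thus above its level of 135 in tendon monocyte/macrophage-like cells, while Cd74 was at 15.5 against 1377. This cluster was singled out after its values were seen, and 16.1% of its cells (5 of 31) held an H2-DM UMI after thinning.

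**Figure D5:**
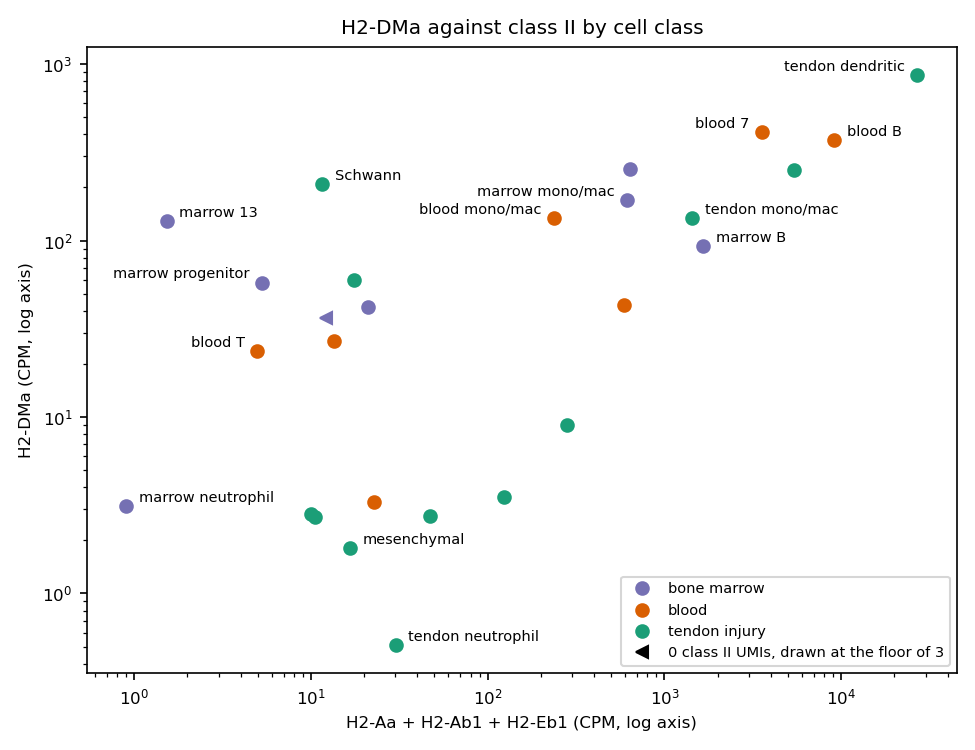
H2-DMa level against class II level for each cell class of at least 20 cells, both in CPM on log axes and coloured by library; the triangle is a class with 0 class II UMIs drawn at the level of 3 counts. Classes with high class II lie to the upper right, while Schwann-like cells (209 and 11.6), marrow cluster 13 (130 and 1.53) and marrow progenitor-like cells (57.8 and 5.31) have more H2-DMa than keratinocyte-like (2.80) and mesenchymal-like cells (1.80), 2 classes of similarly low class II level. Other classes of low class II level, such as tendon basophil/mast-like (59.8) and blood T-like cells (23.7), also have more H2-DMa than those 2.

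In some of the other classes a low class II level came from a few cells, and in others it was spread over more. In blood NK/innate lymphoid-like cells 5 of 150 cells held 99.5% of the class II UMIs and the rest had 3.42 CPM; those 5 held the B marker list at 2715 CPM against 7.70 in the others. In endothelial-like cells 1 of 295 cells held at least 50%, and the level without the 5 highest was 6.20. In tendon cluster 20, unnamed, it was 9.16 in place of 281. The level was less concentrated in tendon neutrophil-like cells (23.3 without the 5 highest in place of 30.1) and keratinocyte-like cells (7.36 in place of 9.94). Mesenchymal-like cells had 10.5 in place of 16.6, and their 5 highest cells held the monocyte/macrophage list at 1290 CPM against 243. The part of B cell or macrophage RNA, as free RNA or in doublets, in these levels was not tested.

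Few of the factors that bind class II promoters were called, and some inducers of Ciita were. The 7 promoter factors were Rfx5, Rfxap and Rfxank of RFX, Nfya, Nfyb and Nfyc of NF-Y, and Creb1. Of these 0 were past 2-fold between tendon dendritic-like and monocyte/macrophage-like cells. The count was also 0 between tendon and blood and between blood and marrow monocyte/macrophage-like cells. Of all genes 7.43%, 18.9% and 6.15% were called higher in these comparisons and 20.3%, 12.8% and 3.59% lower. With 7 genes, counts of 0 do not set these factors apart from all genes. Rfx5 (20.2 against 4.58 CPM) and Nfyb (44.5 against 20.4) were higher in blood B-like cells, beside 17.3% of all genes. Nfyc was higher in nonclassical than in classical monocyte-like cells, beside 12.8%. Of the 9 compared genes that induce Ciita, Jak2, a kinase of the interferon-gamma receptor (168 against 33.5, log2 2.33), and Irf4 (24.4 against 4.66, log2 2.39) were higher in dendritic-like cells. Both were also higher in blood B-like than in blood monocyte/macrophage-like cells (log2 1.07 and 1.88). Ifngr1, which encodes a chain of that receptor (254 against 513, log2 −1.02), and Irf4 (−1.40) were lower in tendon than in blood monocyte/macrophage-like cells. Ifng itself had 0 UMIs in tendon dendritic-like cells and in tendon and blood monocyte/macrophage-like cells. Its level in T-like and NK/innate lymphoid-like cells is not given here.

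Several genes of endosomal processing were lower in dendritic-like and B-like cells than in the monocyte/macrophage-like cells of the same library. Dendritic-like cells were lower than tendon monocyte/macrophage-like cells for 4 of 8: cathepsin L (Ctsl, 94.8 against 1715 CPM, log2 −4.18), Ctsd (−3.76), Ctsb (−3.44) and Lgmn, a lysosomal protease (−3.27). Ifi30, which reduces disulphide bonds in endosomes (log2 1.10), and the cathepsin inhibitor Cst3 (1.46) were higher, and Ctss, encoding the protease best known for cutting the invariant chain in dendritic cells, was at 1548 against 1865. The same 4 protease genes were higher in tendon than in blood monocyte/macrophage-like cells: Lgmn by a log2 ratio of 3.77, Ctsl by 3.72, Ctsd by 2.26 and Ctsb by 2.17. In blood B-like cells all 8 were lower than in blood monocyte/macrophage-like cells, most of which were monocyte-like. Of all genes 20.3% were called lower in dendritic-like cells, 18.9% higher in tendon over blood and 23.5% lower in blood B-like cells.

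Of the 3 genes for turnover of class II at the surface, Cd83, which protects class II from ubiquitination by March1, was higher in dendritic-like cells (295 against 68.7, log2 2.10) and in tendon over blood monocyte/macrophage-like cells (68.7 against 4.42, log2 3.96). March1 was lower in tendon than in blood monocyte/macrophage-like cells (29.3 against 132, log2 −2.17). March8 was lower in dendritic-like cells (−3.74, on 3 UMIs) and higher in tendon over blood monocyte/macrophage-like cells (1.56). Among 6 costimulation genes, 4 were higher in dendritic-like cells (Cd80 at log2 1.26, Cd86 at 1.52, Icosl at 2.04 and Pdcd1lg2 at 3.51) and 4 in tendon over blood monocyte/macrophage-like cells (Cd80 at 1.18, Cd86 at 1.78, Cd40 at 1.18 and Cd274 at 1.07). Of all genes 7.43% and 18.9% were called higher in these comparisons.

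Class I presentation genes, used for comparison, did not follow the class II members in every comparison. Of 11 genes Tap2 (log2 1.08), Psmb8 (1.44), Psmb9 (1.12) and Psme1 (1.04) were higher in dendritic-like cells, with 0 lower, beside 7.43% and 20.3% of all genes. Between tendon and blood monocyte/macrophage-like cells 0 class I genes were called, beside 18.9% of all genes higher and 12.8% lower. Migratory-like dendritic cells had 9 of the 10 compared class I genes above type 2-like cells, at a median log2 ratio of 1.41. There 6 of 7 class II members were lower, beside 17.1% of all genes called higher and 18.1% lower. This group held 13 cells, and its class I counts were not taken under the other clusterings. Type 1-like cells had 6 of 10 class I genes above type 2-like cells (median log2 ratio 1.18) and 0 of 7 class II members (median −0.28). Of all genes 10.6% were called higher there and 14.7% lower. Of the other class II region genes H2-DMb2 (5.47), H2-Oa (6.49) and H2-Ob (6.40) were higher in dendritic-like cells, and H2-Ob was lower in tendon than in blood monocyte/macrophage-like cells (−1.47, on 17 and 9 UMIs).

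Across 17 groups of at least 50 cells, H2-Aa, H2-Ab1 and H2-Eb1 had Pearson correlations of 0.995 or more with their mean (log2 of CPM plus 1), which they form. For the other members it was 0.99 for Cd74, 0.90 for Ciita, 0.80 for H2-DMb1 and 0.77 for H2-DMa. Among 9742 further genes the 10 most like it were Zbtb43 (0.84), Uvrag (0.84), Irf4 (0.83), Cd83 (0.81), H2-DMb2 (0.80), Cd40 (0.80), Slamf9 (0.80), Ero1lb (0.79), Cd180 (0.79) and Kmo (0.79). For Ciita the 5 most alike were H2-DMb2 (0.91), Irf4 (0.90), Il4i1 (0.90), A530040E14Rik (0.89) and H2-Ob (0.86). These are descriptions over groups that share 3 libraries and differ in depth.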

How the data were processed

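The deposited values are raw UMI counts for every gene in every cell, without normalization. The authors used Cell Ranger, version 5.0.1 in the file headers, on mm10 according to the submitters' processing notes. Total counts were 49580625 in marrow (1855 barcodes), 22542581 in blood (2241) and 90621052 at the tendon injury (5629). Gene positions were matched by Ensembl identifier to GENCODE M21 on GRCm38, and promoter sequences to RefSeq on GRCm38.p6.

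Cells needed at least 200 genes and at most 20% mitochondrial UMIs, which removed 15, 57 and 651 cells. Scrublet's own threshold called 6 tendon cells, so the cells with the highest scores, at 0.8% per 1000 cells, were removed instead (27, 38 and 198). Clusters came from scanpy 1.11.5 (2000 variable genes, 30 principal components, 15 neighbours, Leiden resolution 1) in each library. A cluster took the class with the highest marker level that had at least 3 markers among its 100 leading genes, if no other class came within 80% of it, no other class had more markers among its 10 leading genes, and its markers averaged at least 0.1 of their highest level in any cluster. Summed UMIs per class were compared; a floor of 3 counts stood for a count of 0. The ratios were tested on simulated counts with known answers, and the thinning on the blood counts, by setting thinned sums against expected ones. Alternatives included Seurat 5.3.0 in R 4.3.3 and the thinning of cells to 500 or 2000 UMIs.

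The members, marker lists and pathway lists were chosen with earlier results of these data known, and the naming rule was settled after the clusters were seen. Of the genes listed, Ighd, Igkc, Iglv1, Trac, Trbc1, Trbc2, H2-Ea, H2-Ea-ps, Marchf1 and Marchf8 had no feature under those symbols, the last of these being present as March1 and March8. A pathway gene is named with values if past 2-fold in the tendon dendritic-like to monocyte/macrophage-like or the tendon to blood comparison, or if in the class II region; other names were added after values were seen. Genes alike were ranked among those with at least 20 CPM in a group.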

Additional observations from a re-analysis of the deposited data

Results flagged for a closer look

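Class II UMIs were also present in the cells that entered no comparison. The cells removed by the filter on genes and mitochondrial UMIs held 17 in marrow, 159 in blood and 421 at the tendon injury, and the cells removed as doublets held 97, 1978 and 3218. There were no control samples to set them against.

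H2-DMa and H2-DMb1 differed in direction between libraries when B-like cells were set against monocyte/macrophage-like cells. H2-DMb2, the near-identical neighbour of H2-DMb1, was higher in B-like cells in each library. It was at 99.8 against 4.37 CPM in marrow, 404 against 2.37 in blood and 125 against 1.88 at the tendon injury. How reads that fit both genes were counted is not known. The log2 ratio of H2-DMa was 1.47 in blood and 0.90 at the tendon injury but −0.86 in marrow, and that of H2-DMb1 was 0.49 in blood but −3.03 in marrow and −0.58 at the tendon injury (−2.20 to 0.65, on 5 UMIs in B-like cells). The difference between libraries was not tested, since there was 1 library per tissue. The marrow B-like cells were led by precursor genes (Vpreb1, Dntt, Igll1) and those of blood by Cd79a, Ebf1 and Ms4a1, and the part of that difference in the H2-DM values was not tested.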

How the results depend on the processing

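No paired analysis was possible because each tissue has 1 library, and no replicate could be left out. Of the results for the 5 class II comparisons and the tendon share, 11 values under alternatives moved by less than their counting interval, 52 moved by more and 7 turned; for single genes and thinned shares 177, 266 and 31 did. Values follow for tendon dendritic-like over monocyte/macrophage-like (reported 4.23), tendon over blood (2.60), blood over marrow (−1.38), blood B-like over monocyte/macrophage-like (5.27) and nonclassical over classical (4.20), in that order as log2 ratios, then the tendon share (49.4%). With at least 500 genes and at most 10% mitochondrial UMIs they were 4.14, 2.25, 1.34, 4.79, 1.83 and 52.6%. With no doublet removal tendon over blood was 1.18, B-like over monocyte/macrophage-like 3.77, nonclassical over classical 0.91 and the share 50.8%, and with 2 times as many doublets removed they were 4.17, 1.24, −0.40, 3.94, 0.092 and 48.1%. Seurat integration gave 4.39, 0.33, 9.76, 3.19 and a share of 38.0%. Keeping the members and pathway genes among the variable genes gave 3.99, 1.29, 2.40, 3.80 and 56.7%. At 0.5 times the resolution the ratios other than blood over marrow were 4.09, 1.50, 4.10 and 0.47 and the share 52.1%, and at 2 times they were 4.20, 2.26, 1.69, 4.87, 1.97 and 51.7%. With 50 leading genes the last 4 ratios were 0.68, 0.54, 3.35 and −0.55. Naming each cell by its own markers gave 3.69, 1.77, 3.19, 4.04, 1.89 and 62.5%. A mean over cells gave 3.94, 2.93, 5.47 and 3.78 for the ratios other than blood over marrow. Leaving out mitochondrial, ribosomal, haemoglobin, S100a8 and S100a9 UMIs gave 4.34 for dendritic-like over monocyte/macrophage-like and 5.53 for B-like over monocyte/macrophage-like cells, and median-of-ratios size factors gave 4.47 for the former. Without the 5 cells with the most class II UMIs in each group, an alternative added after seeing the data, as were those for the dendritic-like clusters, they were 4.27, 4.05, −0.38, 6.81 and 5.56.

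Single genes turned in blood over marrow together with class II. H2-Aa, H2-Ab1, H2-Eb1 and Cd74 were 1.40, 1.36, 1.23 and 0.91 with the stricter filter, 2.49, 2.33, 2.36 and 1.79 with the members kept, 1.73, 1.78, 1.51 and 1.26 at 2 times the resolution, 0.65, 0.50, 0.45 and 0.53 with 50 leading genes (Ciita 0.31), and 3.04, 3.24, 3.34 and 2.43 with cells named by their own markers (Ciita 1.46). Seurat clusters gave 10.25 for H2-Aa, 8.79 for H2-Ab1, 5.57 for Cd74 and 2.76 for Ciita. With 50 leading genes H2-DMb1 was −0.14 in tendon over blood, and H2-Aa, H2-Ab1 and H2-Eb1 were −0.45, −0.50 and −0.78 in nonclassical over classical, where H2-Eb1 was −0.055 with 2 times as many doublets removed. Blood cluster 7, with a class II level of 3568 CPM, entered the blood monocyte/macrophage-like class in the run with 50 leading genes; elsewhere the cause was not tested. No value could be had for blood over marrow without doublet removal or at 0.5 times the resolution, where no marrow cluster took the name, or for nonclassical over classical with Seurat or with the members kept; scalings do not apply to the share. Ciita is limited by depth, with 41, 238 and 152 UMIs in the marrow, blood and tendon libraries.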
